A study of Rattus norvegicus with 9 samples.

Results

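The genes described here carry the insulin signal in liver and the enzymes and regulators of gluconeogenesis that it restrains: Insr, Irs1, Irs2, Akt2, Foxo1, Trib1, Pck1, G6pc and Fbp1. They were taken by symbol from a table of 24496 genes, in which 8 of the 9 were read. All 8 passed the filter on low counts, and G6pc was not analysed here. Liver RNA came from female Wistar rats of 19 weeks, with 1 library per animal. Each rat was put on western diet when 10 weeks old, was ovariectomised 6 weeks later and was given degarelix, which blocks the receptor for gonadotropin-releasing hormone. Osmotic pumps then released follicle-stimulating hormone (FSH) in 4 rats, at a daily dose of 6 µg per kg, and carried vehicle in 5 rats. Food was limited for 12 days, then free for 7 days, and the livers were taken after a fast of 4 h. The vehicle animals thus carried the same ovariectomy, degarelix and diet as the FSH animals, and rats with ovaries or without degarelix were not compared.

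Insulin binds the receptor encoded by Insr, which phosphorylates the docking proteins IRS1 and IRS2. These recruit phosphoinositide 3-kinase, whose product activates AKT2, the main AKT kinase of insulin action in hepatocytes. Active AKT excludes the transcription factor FOXO1 from the nucleus and so lowers transcription of Irs2, G6pc and Pck1, while fasting, glucagon and glucocorticoids raise it. Pck1 encodes the cytosolic phosphoenolpyruvate carboxykinase, Fbp1 the fructose-1,6-bisphosphatase and G6pc the catalytic subunit of glucose-6-phosphatase, which are the committed steps of glucose production. Trib1 encodes a pseudokinase that brings the C/EBPα transcription factor to the ubiquitin ligase COP1.

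Promoter windows of 300 bases, from 250 before to 50 after the transcription start, were at hand from RefSeq (build GRCr8) for 6 of the 9 genes. Those of Insr, Foxo1 and Pck1 are shown because they are the receptor, the FOXO factor and the enzyme gene that the pathway connects. Capitals mark letters that matched a searched motif on either strand, with the windows written 5′ to 3′ on the strand of the gene.
Insr, chr12:6128754-6129053, minus strand: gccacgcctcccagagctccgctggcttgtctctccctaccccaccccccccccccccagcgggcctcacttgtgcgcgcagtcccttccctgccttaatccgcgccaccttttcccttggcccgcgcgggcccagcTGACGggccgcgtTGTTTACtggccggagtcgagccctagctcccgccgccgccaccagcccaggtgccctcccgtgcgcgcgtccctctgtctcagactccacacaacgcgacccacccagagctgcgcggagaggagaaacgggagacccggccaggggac
Foxo1, chr2:138462724-138463023, plus strand: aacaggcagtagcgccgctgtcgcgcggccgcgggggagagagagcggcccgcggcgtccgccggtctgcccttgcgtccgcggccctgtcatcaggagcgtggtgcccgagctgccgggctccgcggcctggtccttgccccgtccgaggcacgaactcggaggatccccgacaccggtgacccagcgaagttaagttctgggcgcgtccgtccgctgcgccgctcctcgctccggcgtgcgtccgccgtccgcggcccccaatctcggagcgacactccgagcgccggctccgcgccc
Pck1, chr3:182348322-182348621, plus strand: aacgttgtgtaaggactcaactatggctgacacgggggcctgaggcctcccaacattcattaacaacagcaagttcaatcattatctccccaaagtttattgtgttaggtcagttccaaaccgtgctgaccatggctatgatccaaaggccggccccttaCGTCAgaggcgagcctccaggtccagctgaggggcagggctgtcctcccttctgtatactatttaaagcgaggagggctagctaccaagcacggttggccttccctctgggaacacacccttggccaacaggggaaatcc

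The motifs searched were the cyclic AMP response element TGACGTCA and its core TGACG, which overlap, the forkhead motif GTAAACA, the insulin response sequence TGTTTTG and the glucocorticoid receptor core AGAACA. In Pck1 the core TGACG matched on the opposite strand from base -90, near the start, where an element through which cyclic AMP acts on this gene is known. Insr held the same core from base -113 and the forkhead motif, on the opposite strand, from base -100. Of 33469 windows of this length, 21.2% held the core TGACG and 3.78% the forkhead motif. The full element TGACGTCA was in 1.83% of windows, TGTTTTG in 6.28% and AGAACA in 20.7%. Akt2 held AGAACA on the opposite strand, and no searched letters were in the windows of Foxo1, Irs1 and Fbp1. A match of letters is not a measured binding site.

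Library totals were 23430807 to 27008941 counts in the FSH group and 19295580 to 28672439 counts in the vehicle group. Values are given as CPM, the counts of a gene per 1e6 scaled counts of its library, and they are compared between animals and not between genes, since no transcript lengths were used. Differences were tested with edgeR's quasi-likelihood test over 11924 genes with Benjamini-Hochberg adjustment, and each log2 fold change sets FSH over vehicle. Hepatocyte markers, such as albumin and transferrin, were found in full (10 of 10 tested) and summed to 175300 to 280900 CPM with FSH and 197700 to 243500 CPM with vehicle. Alb alone took 19.4% of the counts of FSH replicate 1 and 10.5 to 16.7% of the other libraries.

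Insr, Irs2, Foxo1 and Trib1 had higher means with FSH, with unadjusted p-values under 0.05, and none of the 8 genes passed after adjustment over all genes. Their mean differences ranged from a log2 fold change of 0.30 for Insr to 0.94 for Irs2. Irs1, Akt2, Pck1 and Fbp1 gave smaller differences, between -0.05 and 0.20. An adjusted p under 0.05 was reached by 0.0335% of all tested genes (4 genes) and by 0 of these 8. An unadjusted p under 0.05 was reached by 4 of the 8, all higher with FSH, where 11.6% of all tested genes reached that level, 6.42% higher and 5.14% lower. The genes and the lists below were chosen with earlier results of these data known, so their shares are not independent of that choice. The median log2 fold change of the 8 was 0.25, and that of all tested genes was 0.00189. DESeq2 also called 0 of the 8 after adjustment, and likewise had 4 of them at an unadjusted p under 0.05.

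**Figure D1:**
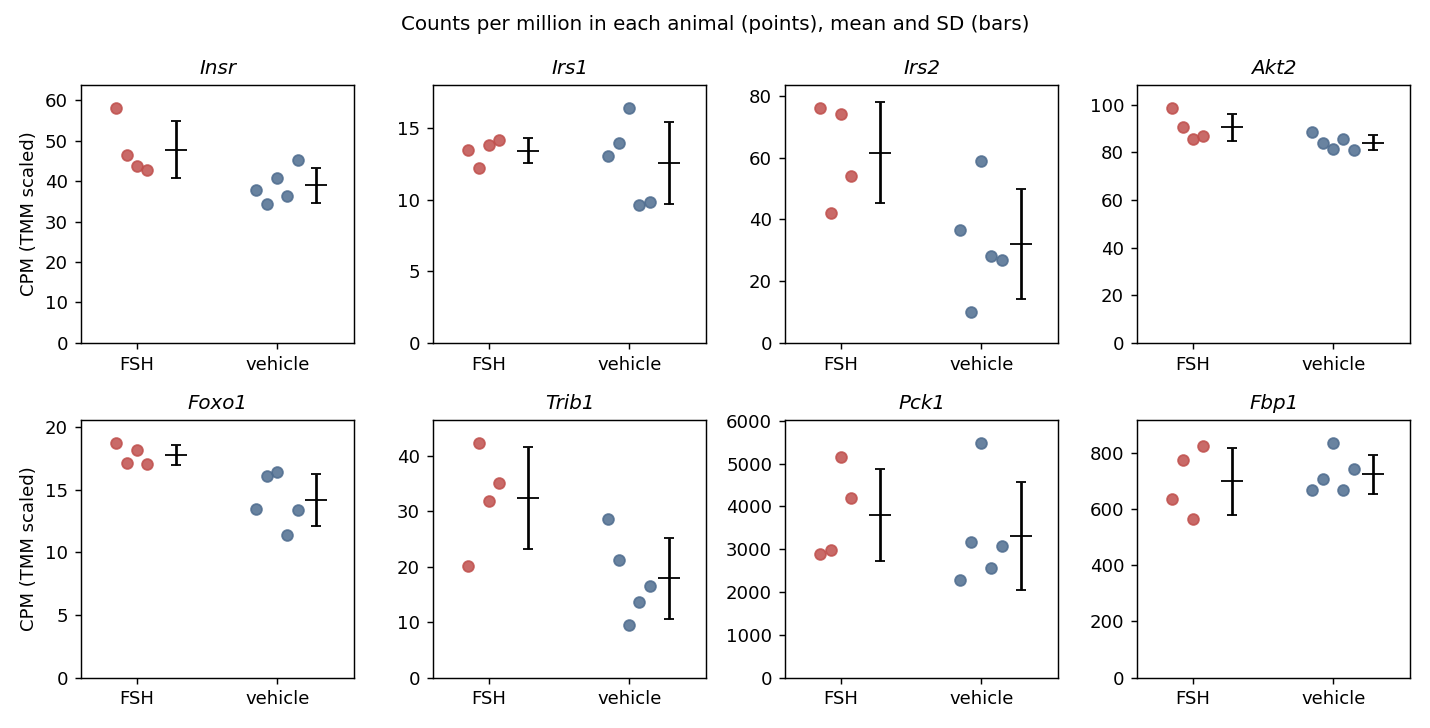
CPM of each of the 8 genes in every animal, FSH left and vehicle right, with the mean and SD beside the points (n = 4 FSH, n = 5 vehicle). The groups separate in Foxo1 and overlap in the other 7 genes.

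The receptor Insr (ENSRNOG00000029986) stood at 58.0, 46.5, 43.8 and 42.8 CPM in FSH replicates 1 to 4, against 37.8, 34.4, 40.9, 36.4 and 45.2 CPM in vehicle replicates 1 to 5. FSH replicate 1 was the highest of all animals, and vehicle replicate 5 lay above FSH replicates 3 and 4. Insr averaged 47.8 ± 7.00 CPM with FSH and 39.0 ± 4.25 CPM with vehicle (SD, n = 4 and 5), a log2 fold change of 0.30 (SE 0.11, 95% interval 0.05 to 0.54, edgeR adjusted p = 0.363). Without FSH replicate 1, the library with the large Alb share, the log2 fold change of Insr was 0.19 (edgeR adjusted p = 0.575).

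The docking protein gene Irs2 (ENSRNOG00000023509), a FOXO1 target in mouse liver, had 76.0, 42.2, 74.2 and 54.2 CPM in FSH replicates 1 to 4, against 36.5, 10.2, 59.0, 28.3 and 27.0 CPM in vehicle replicates 1 to 5. It varied more between animals than any other of the 8 genes, from 10.2 CPM in vehicle replicate 2 to 76.0 CPM in FSH replicate 1, and vehicle replicate 3 lay among the FSH animals. The means were 61.7 ± 16.3 CPM with FSH and 32.2 ± 17.8 CPM with vehicle (SD, n = 4 and 5), a log2 fold change of 0.94 (SE 0.39, 95% interval 0.08 to 1.80, edgeR adjusted p = 0.397). That value of Irs2 was 1.28 without vehicle replicate 3 and 0.70 without vehicle replicate 2.

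Irs1 (ENSRNOG00000014597), the other main docking protein, was at 13.5, 12.2, 13.8 and 14.2 CPM in FSH replicates 1 to 4, against 13.0, 14.0, 16.4, 9.67 and 9.84 CPM in vehicle replicates 1 to 5. The FSH animals lay close together, within the range of the vehicle animals. Its log2 fold change was 0.09 (SE 0.15, 95% interval -0.25 to 0.43, edgeR adjusted p = 0.862), and it ranged from 0.00299 without vehicle replicate 4 and 0.02 without vehicle replicate 5 to 0.21 without vehicle replicate 3.

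Akt2 (ENSRNOG00000018677), the kinase below the docking proteins, was at 98.4, 90.7, 85.7 and 87.0 CPM in FSH replicates 1 to 4, against 88.5, 83.8, 81.5, 85.6 and 81.1 CPM in vehicle replicates 1 to 5. The groups overlapped in a narrow span, with only FSH replicates 1 and 2 above every vehicle animal. Its log2 fold change was 0.11 (SE 0.07, 95% interval -0.04 to 0.25, edgeR adjusted p = 0.584), and it was 0.06 without FSH replicate 1. The interval leaves room for an increase of up to 0.25 on the log2 scale and for a decrease of up to 0.04.

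Foxo1 (ENSRNOG00000013397), the transcription factor that AKT holds out of the nucleus, was at 18.7, 17.1, 18.2 and 17.1 CPM in FSH replicates 1 to 4, against 13.5, 16.1, 16.4, 11.4 and 13.4 CPM in vehicle replicates 1 to 5. Every FSH animal was above every vehicle animal, which held in 1 of the 8 genes and in 2.19% of all tested genes. The closest pair was FSH replicate 4 at 17.1 CPM and vehicle replicate 3 at 16.4 CPM. The means were 17.8 ± 0.803 CPM with FSH and 14.2 ± 2.09 CPM with vehicle (SD, n = 4 and 5), a log2 fold change of 0.33 (SE 0.11, 95% interval 0.09 to 0.57, edgeR adjusted p = 0.321). The log2 fold change of Foxo1 lay between 0.25 and 0.39 when each animal was left out, with unadjusted edgeR p-values between 0.00497 and 0.0333. These are transcript levels, and neither the phosphorylation nor the location of the FOXO1 protein was measured.

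Trib1 (ENSRNOG00000004100) was at 20.2, 42.2, 31.7 and 35.0 CPM in FSH replicates 1 to 4, against 28.5, 21.1, 9.58, 13.6 and 16.6 CPM in vehicle replicates 1 to 5. FSH replicates 2, 3 and 4 were above every vehicle animal, and FSH replicate 1 was below vehicle replicates 1 and 2. The means were 32.3 ± 9.19 CPM with FSH and 17.9 ± 7.30 CPM with vehicle (SD, n = 4 and 5), a log2 fold change of 0.86 (SE 0.29, 95% interval 0.20 to 1.51, edgeR adjusted p = 0.334). With single animals left out, its lowest value was 0.70, without vehicle replicate 3 or FSH replicate 2, and the highest was 1.09, without vehicle replicate 1.

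**Figure D2:**
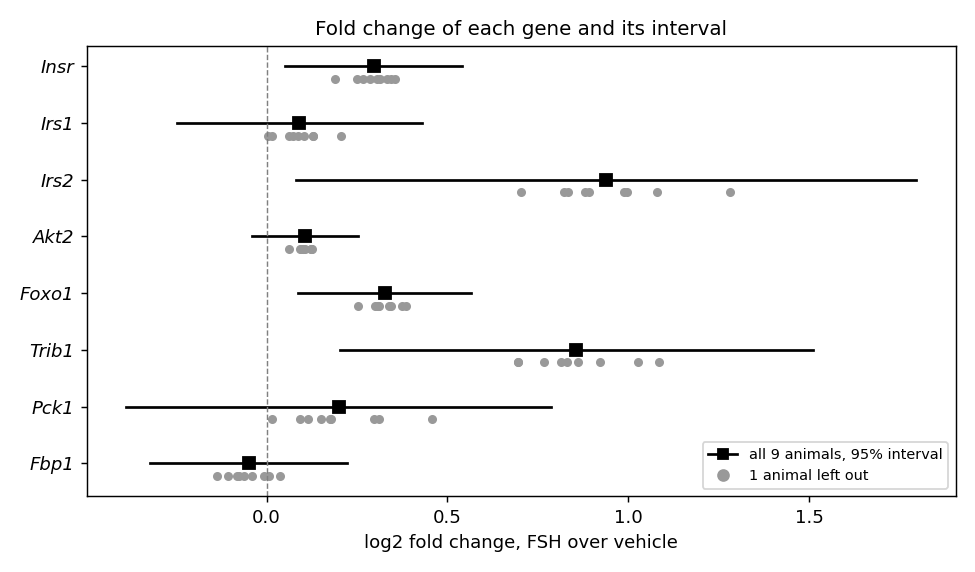
Log2 fold change, FSH over vehicle, of each gene (squares) with its 95% interval from edgeR (bars), and the values with 1 animal left out (grey points). The intervals of Insr, Irs2, Foxo1 and Trib1 lie above 0, before adjustment for the number of genes, and those of Irs1, Akt2, Pck1 and Fbp1 span 0.

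Of the enzyme genes, Pck1 had a log2 fold change of 0.20 and Fbp1 one of -0.05, and neither passed. Pck1 (ENSRNOG00000028616) was at 2895, 2974, 5144 and 4198 CPM in FSH replicates 1 to 4, against 2288, 3159, 5476, 2550 and 3080 CPM in vehicle replicates 1 to 5. The highest animal was vehicle replicate 3, and the groups overlapped over most of their range. Pck1 had a log2 fold change of 0.20 (SE 0.27, 95% interval -0.39 to 0.79, edgeR adjusted p = 0.820). Without vehicle replicate 3 it was 0.46 (edgeR adjusted p = 0.402), and without FSH replicate 3 it was 0.02, while the adjusted p over all alternatives ran from 0.402 to 0.993. Leaving out vehicle replicate 1 gave 0.09, vehicle replicate 4 gave 0.11 and FSH replicate 1 gave 0.31.

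Fbp1 (ENSRNOG00000017597), which acts between Pck1 and glucose-6-phosphatase in the pathway, was at 637, 774, 565 and 823 CPM in FSH replicates 1 to 4, against 668, 706, 835, 668 and 745 CPM in vehicle replicates 1 to 5. FSH replicates 1 and 3 were below every vehicle animal, FSH replicates 2 and 4 lay within the vehicle range, and vehicle replicate 3 was the highest. Its log2 fold change was -0.05 (SE 0.12, 95% interval -0.32 to 0.22, edgeR adjusted p = 0.915), with values from -0.14 without FSH replicate 4 to 0.04 without FSH replicate 3.

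Set against the vehicle mean on the log2 scale, 6, 6, 7 and 8 of the 8 genes were higher in FSH replicates 1 to 4, and 4, 4, 6, 2 and 2 in vehicle replicates 1 to 5. The animals did not share 1 pattern. In FSH replicate 1, Irs2 was 1.45 and Insr 0.58 above the vehicle mean while Trib1 was 0.27 above it. In FSH replicate 2 Trib1 led at 1.34 and Irs2 was at 0.60. Vehicle replicate 3 held the highest vehicle value in 5 of the 8 genes (Irs1, Irs2, Foxo1, Pck1 and Fbp1) and the lowest of Trib1. In both groups the animal with the most Irs2 had the least Trib1.

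**Figure D3:**
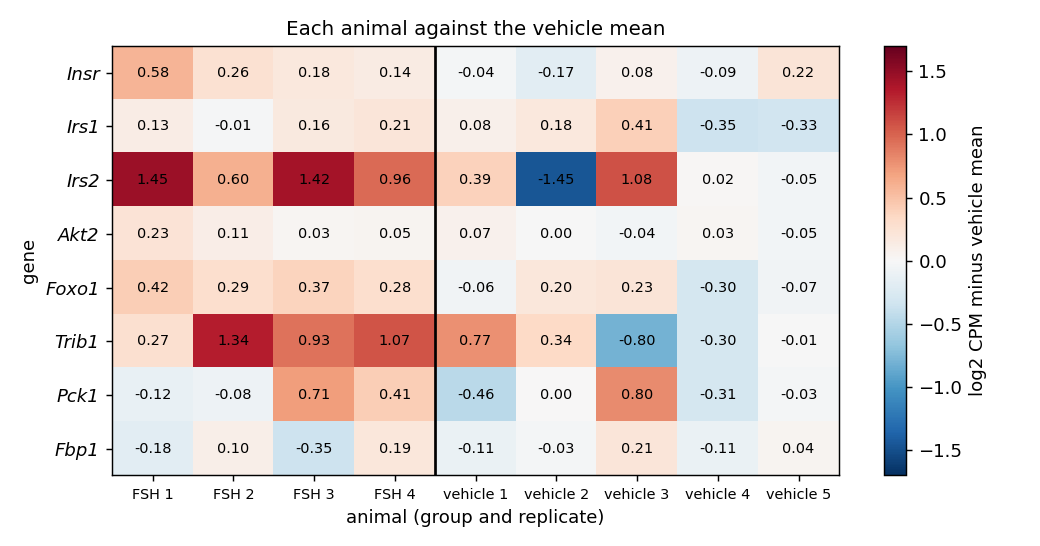
Each cell gives log2 CPM of a gene (rows) in an animal (columns, FSH left of the line, vehicle right) minus the vehicle mean of that gene. Foxo1 is above 0.28 in all FSH animals and at most 0.23 in vehicle animals, and Irs2 runs from 1.45 in FSH replicate 1 to -1.45 in vehicle replicate 2.

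Over the 9 animals, 28 pairs of the 8 genes were correlated on log2 CPM, and 0 pairs passed after Benjamini-Hochberg adjustment by Pearson's r or Spearman's rho. The highest r was that of Irs1 with Foxo1 (r = 0.727, exact permutation p = 0.0297, adjusted p = 0.502; rho = 0.45, exact permutation p = 0.23, adjusted p = 0.585). Without the 2 animals farthest from the median of Irs1 its r was 0.06, so it rests on those animals, and with group means removed over all 9 animals r was 0.836. The highest rho was that of Irs2 with Foxo1 (rho = 0.817, exact permutation p = 0.0108, adjusted p = 0.302; r = 0.48, exact permutation p = 0.194, adjusted p = 0.666). Without the 2 animals farthest from the median of Irs2 its r was 0.876, and with group means removed it was -9.82e-05.

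Among 10800 other genes of at least 1 CPM, the 3 that varied most like each of the 8 across animals, after removal of group means, were picked by Pearson's r over 9 animals, as a description without a test. For Insr these were Synm, Npm1 and Paip1, with r of 0.961 to 0.975. For Irs2 they were Arid5b, RGD1359290 and Rsrc2, with r of 0.967 to 0.977. For Foxo1 they were Fam188b, Slc38a3 and Tbl2, with r of 0.95 to 0.954. None of these 9 is itself on a list of insulin or gluconeogenesis genes used here. For Trib1 they were Hip1r, Iars2 and Arpc4 (0.921 to 0.935), and for Pck1 UST4r, Golgb1 and Ints3 (0.961 to 0.97). For Akt2 they were Synj2, Pon2 and Kbtbd12 (0.942 to 0.977), for Irs1 Gpalpp1, Dnajb4 and Lmo7 (0.962 to 0.974), and for Fbp1 Fmo4, Gtf3c2 and Fn3krp (0.934 to 0.959). With so many genes and 9 animals, high values of r are reached in any case.

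In the wider list of insulin receptor to AKT signalling, 29 of 39 tested genes had a higher fold change with FSH, with a median of 0.07. At an unadjusted p under 0.05, 10 were higher and 1 lower, which is 25.6% and 2.56% of the list against 6.42% and 5.14% of all tested genes, and 0 passed after adjustment. Insr, Irs2 and Trib1 are among the 10, so this share is not separate from their values given above. Inppl1 (ENSRNOG00000019730), a lipid phosphatase that removes the product of phosphoinositide 3-kinase, had the smallest p, at 22.7, 13.8, 15.1 and 16.2 CPM in FSH replicates 1 to 4, against 11.5, 14.0, 10.9, 13.4 and 12.2 CPM in vehicle replicates 1 to 5. FSH replicate 1 stood above the rest, and FSH replicate 2 lay among the vehicle animals. The log2 fold change of Inppl1 was 0.45 (SE 0.14 and adjusted p = 0.307 in edgeR), and 0.28 without FSH replicate 1. Socs3 (ENSRNOG00000002946), a cytokine-induced inhibitor of insulin receptor signalling, averaged 9.69 ± 3.83 CPM with FSH and 5.00 ± 2.23 CPM with vehicle (SD, n = 4 and 5), a log2 fold change of 0.96 (SE 0.35 and adjusted p = 0.353 in edgeR).

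Of 33 tested gluconeogenesis enzymes and transporters, 9 had a higher and 24 a lower fold change, with a median of -0.07, and 0 passed after adjustment. At an unadjusted p under 0.05, 1 was higher and 3 were lower (3.03% and 9.09% of the list, against 6.42% and 5.14% of all tested genes). Aqp9 (ENSRNOG00000061883), the channel through which hepatocytes take up glycerol, was at 70.6, 144, 131 and 65.6 CPM in FSH replicates 1 to 4, against 193, 189, 162, 163 and 186 CPM in vehicle replicates 1 to 5. Every FSH animal was below every vehicle animal, as in 1.92% of all tested genes, and the FSH animals formed a higher and a lower pair. Its log2 fold change was -0.80 (SE 0.23 and adjusted p = 0.258 in edgeR), and it was the 1 gene of these lists that DESeq2 called (adjusted p = 0.0325, the lowest of a range up to 0.412 over the alternatives).

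Tat (ENSRNOG00000016348), the tyrosine aminotransferase that glucocorticoids and fasting induce, was at 1296, 628, 735 and 1178 CPM in FSH replicates 1 to 4, against 1628, 3116, 1448, 1304 and 1343 CPM in vehicle replicates 1 to 5. Every FSH animal was below every vehicle animal, as in 1.92% of all tested genes, and vehicle replicate 2 was far above the others. The groups nearly met, at 1296 CPM in FSH replicate 1 and 1304 CPM in vehicle replicate 4. The log2 fold change of Tat was -0.88 (SE 0.31 and adjusted p = 0.340 in edgeR), and -0.58 without vehicle replicate 2. Mpc2 (ENSRNOG00000003150), a subunit of the mitochondrial pyruvate carrier, averaged 70.03 ± 3.85 CPM with FSH and 61.2 ± 4.76 CPM with vehicle (SD, n = 4 and 5), a log2 fold change of 0.20 (SE 0.08 and adjusted p = 0.378 in edgeR). Its groups did not overlap, with FSH above, as in 2.19% of all tested genes. They nearly met, at 66.6 CPM in FSH replicate 2 and 66.2 CPM in vehicle replicate 1.

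The remaining main steps were chosen for mention after their values were seen. Pc, the pyruvate carboxylase, had a log2 fold change of 0.07 (95% interval -0.17 to 0.31), Pck2, the mitochondrial isoform of Pck1, -0.06 (-0.30 to 0.17), and Slc37a4, the transporter that feeds glucose-6-phosphatase, -0.06 (-0.25 to 0.13). Slc2a2, the glucose transporter of the hepatocyte membrane, had -0.03 (-0.26 to 0.19). G6pc3, a glucose-6-phosphatase of many tissues, had -0.18 (-0.44 to 0.08). All 5 intervals span 0, and the ends nearest to a large change are -0.44 and 0.31.

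Of 27 tested transcriptional regulators of gluconeogenesis, 18 had a higher fold change, with a median of 0.15, and 0 passed after adjustment. At an unadjusted p under 0.05, 5 were higher and 2 lower (18.5% and 7.41% of the list, against 6.42% and 5.14% of all tested genes). Foxo1 is among the 5, and beside it the smallest p-values were those of Onecut1 and Klf15. Onecut1 (ENSRNOG00000008095), the liver factor HNF6, was at 15.5, 3.61, 12.7 and 13.9 CPM in FSH replicates 1 to 4, against 2.78, 2.09, 6.15, 5.88 and 6.75 CPM in vehicle replicates 1 to 5. FSH replicate 2 lay within the vehicle range and the other 3 FSH animals above it, with a log2 fold change of 1.27 (SE 0.43 and adjusted p = 0.333 in edgeR). Klf15 (ENSRNOG00000017808), a factor that promotes amino acid use for glucose production, averaged 106 ± 13.4 CPM with FSH and 147 ± 36.3 CPM with vehicle (SD, n = 4 and 5), a log2 fold change of -0.47 (SE 0.17 and adjusted p = 0.358 in edgeR).

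**Figure D4:**
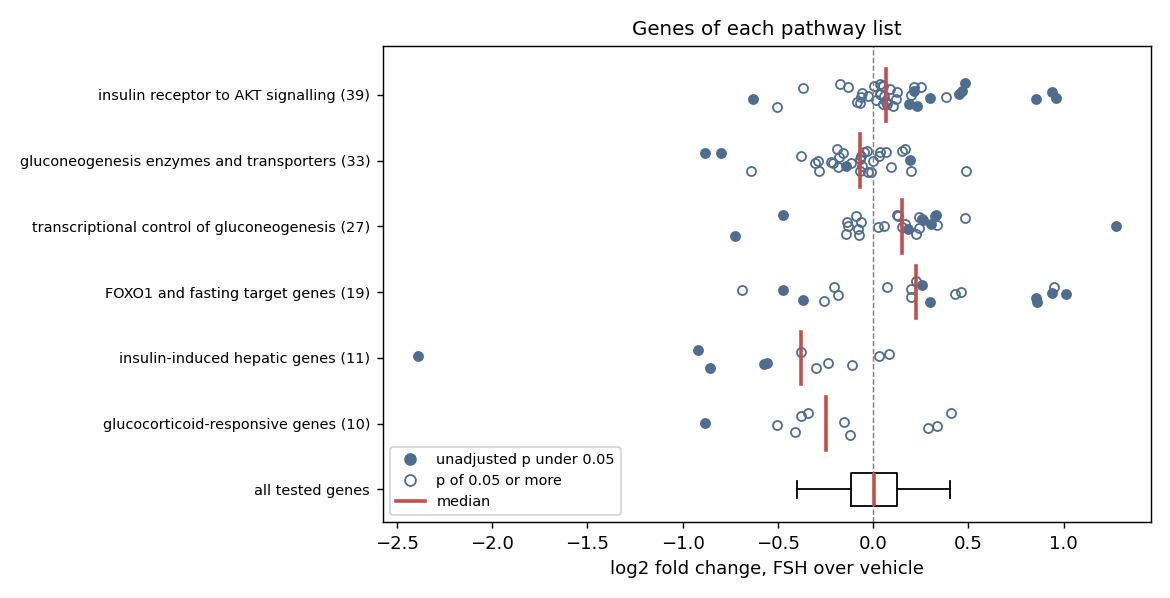
Log2 fold changes, FSH over vehicle, of the tested genes of each list (number in brackets), with filled points for an unadjusted p under 0.05, red lines at list medians and, for all tested genes, a box of the quartiles with whiskers at the 5th and 95th percentiles. Medians run from -0.38 in insulin-induced genes to 0.22 in FOXO1 and fasting target genes, against 0.00189 over all tested genes.

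Among FOXO1 and fasting target genes, 13 of 19 tested had a higher fold change, with a median of 0.22, and 0 passed after adjustment. Of these, 6 were higher and 2 lower at an unadjusted p under 0.05 (31.6% and 10.5% of the list, against 6.42% and 5.14% of all tested genes). Irs2, Insr and Trib1 are among the 6, so this share is not separate from the values of these genes given above. The 2 lower genes were Klf15 and Sesn3, with log2 fold changes of -0.47 and -0.37 (edgeR adjusted p = 0.358 and 0.427). Sesn3 was chosen for mention after its values were seen. Gadd45a (ENSRNOG00000005615), a growth arrest gene, was at 16.6, 40.2, 25.03 and 20.4 CPM in FSH replicates 1 to 4, against 14.7, 9.36, 10.7, 17.5 and 18.3 CPM in vehicle replicates 1 to 5. FSH replicate 1 was within the vehicle range, and FSH replicate 2 was the highest. The log2 fold change of Gadd45a was 0.86 (SE 0.27 and adjusted p = 0.307 in edgeR), and 0.55 without FSH replicate 2. Mttp (ENSRNOG00000010655), which loads lipid onto apolipoprotein B, averaged 429 ± 53.05 CPM with FSH and 360 ± 13.7 CPM with vehicle (SD, n = 4 and 5), a log2 fold change of 0.26 (SE 0.09 and adjusted p = 0.350 in edgeR).

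Of 11 tested genes that insulin induces in liver, 9 had a lower fold change, with a median of -0.38, and 5 were lower at an unadjusted p under 0.05 (45.5% of the list, against 5.14% of all tested genes). None passed after adjustment. Thrsp and Srebf1, which promote lipogenesis, had the smallest p-values, at edgeR adjusted p = 0.317 and 0.390, followed by Me1. Me1 (ENSRNOG00000009715), the malic enzyme that makes NADPH for fatty acid synthesis, was at 36.7, 34.8, 40.03 and 25.6 CPM in FSH replicates 1 to 4, against 129, 67.9, 25.4, 52.5 and 50.1 CPM in vehicle replicates 1 to 5. Vehicle replicate 3 was the lowest animal, vehicle replicate 1 the highest, and the other vehicle animals lay above all FSH animals. The log2 fold change of Me1 was -0.92 (SE 0.38 and adjusted p = 0.393 in edgeR), and -0.51 without vehicle replicate 1.

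Glucocorticoid-responsive genes had 3 higher and 7 lower fold changes of 10 tested, with a median of -0.25, and 0 passed after adjustment. Tat, above, was the 1 gene of this list with an unadjusted p under 0.05, which is 10% of the list, against 5.14% of all tested genes that were lower at that level. Fkbp5 (ENSRNOG00000022523), a co-chaperone of the glucocorticoid receptor, had the opposite sign, at a log2 fold change of 0.41 (SE 0.19 and adjusted p = 0.448 in edgeR). Tsc22d3 (ENSRNOG00000056135), the glucocorticoid-induced leucine zipper, had -0.41 (SE 0.24 and adjusted p = 0.552 in edgeR), and -0.16 without vehicle replicate 2. Across the pathway lists without the 8 genes, 62 of 123 tested genes had a higher and 61 a lower fold change. Their median was 0.00483, against 0.00189 over all tested genes, and 0 passed after adjustment. An unadjusted p under 0.05 was reached by 15 higher and 12 lower genes (12.2% and 9.76%, against 6.42% and 5.14% of all tested genes).

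Markers of other liver cells had the following summed levels. Endothelial markers (10 of 11 tested higher) summed to 294 to 389 CPM with FSH and 258 to 333 CPM with vehicle, and stellate and fibroblast markers (9 of 9 tested lower) to 175 to 210 CPM with FSH and 224 to 291 CPM with vehicle. Of the latter sums, Col3a1 alone took 101 to 129 CPM with FSH and 141 to 193 CPM with vehicle. The log2 fold changes of the 9 stellate and fibroblast markers had a median of -0.31. They ran from -0.92 for Col1a1 to -0.04 and -0.03 for Des and Pdgfrb, the smallest changes. At an unadjusted edgeR p under 0.05, 2 were lower (22.2% of the list, against 5.14% of all tested genes), and 0 passed after adjustment. No endothelial, stellate or fibroblast marker in the table was at 0 in all animals. Of the 11 endothelial markers tested, 4 were higher and 0 lower at an unadjusted edgeR p under 0.05. That is 36.4% and 0% of the list, against 6.42% and 5.14% of all tested genes, and 0 passed after adjustment. Clec4g and Stab1 had log2 fold changes of 0.61 and 0.43. In both, every FSH animal was above every vehicle animal, as in 2.19% of all tested genes. Flt4 had 0.51, while Lyve1 and Cdh5 had 0.04 and -0.06. Kupffer and macrophage markers summed to 490 to 752 CPM with FSH and 301 to 808 CPM with vehicle, with 7 of 10 lower. Cholangiocyte markers, with 4 of 6 lower, summed to 10.5 to 19.6 CPM with FSH and 13.4 to 22.7 CPM with vehicle, and T, B and NK cell markers to 13.1 to 17.0 CPM with FSH and 9.90 to 18.5 CPM with vehicle, with 3 of 5 higher. In the list of pancreas, adipose tissue and kidney, 5 of 11 genes were at 0 in every animal, Ins1 and Gcg among them, and its sums were 141 to 166 CPM with FSH and 102 to 150 CPM with vehicle. Of these sums, Cidec alone took 90.5 to 127 CPM with FSH and 71.3 to 106 CPM with vehicle. Cpa1 took 17.6 to 50.4 CPM with FSH and 5.65 to 42.6 CPM with vehicle, so the sums do not stand for these tissues as a whole. Insr and Foxo1 are also transcribed in endothelial cells, and the part of cell makeup in their values was not tested. In whole liver RNA, fewer cells of a type and less RNA per cell cannot be told apart.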

How the data were processed

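Messenger RNA of snap-frozen liver was sequenced as paired-end stranded libraries, per the labels' protocols. The authors deposited whole-number read counts per gene, not normalised. Build rn6 and the tools STAR, edgeR and DESeq2 are named, without roles, per the submitters' processing notes. Which annotation and strand setting were used for counting is not given in the sources used here. Column names equal the sample labels, and 8868 genes were listed at 0 in every library.

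Counts were analysed in R 4.3.3 with edgeR 4.0.16: trimmed mean of M values scaling, filtering by group, a 2-sided quasi-likelihood F-test of 4 FSH against 5 vehicle libraries and Benjamini-Hochberg adjustment over 11924 genes, with a threshold of 0.05. A standard error is the size of the log2 fold change divided by the root of its F value. An interval is the log2 fold change plus or minus that error times a t quantile at the moderated degrees of freedom. Log2 CPM used a prior count of 2 in the correlations and in the comparison of same-numbered animals, and no prior count in the differences from the vehicle mean. The steps were tested on simulated data. No 2 libraries of a group agreed within counting noise (chi-square over its degrees of freedom at least 27.4), and the labels name them as individual animals.

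Alternatives were DESeq2 1.42.0, limma-voom (limma 3.58.1) with sample quality weights, other scalings and filters, a replicate block, a looser threshold and leaving out each animal. Besides the 9 genes, the text names from each list the 3 smallest p-values, or those past the threshold. The genes and lists were chosen with earlier results of these data known. Promoter sequences are from RefSeq, build GRCr8, and were matched by symbol. A gene of the lists is not reported here.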

Additional observations from a re-analysis of the deposited data

Results flagged for a closer look

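For the 22 genes tested and named by rule, the gap from the highest and the lowest animal of a group to the next was divided by the full range of the group. This was done in 44 sets of values, with a fixed cutoff for each group size. In 3 sets 1 animal stood apart, where chance gives about 2.2. Pck1 was at 5476 CPM in vehicle replicate 3, with the next vehicle animal at 3159 CPM. Tat was at 3116 CPM in vehicle replicate 2, with the next at 1628 CPM, and Tsc22d3 was at 88.7 CPM in the same animal, with the next at 54.3 CPM. Both Tat and Tsc22d3 are induced by glucocorticoids, but the other genes of that list were mixed in vehicle replicate 2. Per1, Sgk1 and Dusp1 had their highest vehicle values there (62.4, 22.6 and 417 CPM), and Klf9 its lowest (19.7 CPM). Fkbp5, Lcn2, Sds and Zbtb16 lay between the other vehicle animals. A glucocorticoid state of this animal was not tested. Vehicle replicate 2 also had the lowest Irs2 of all animals (10.2 CPM). The part of this animal in the differences of Tat and Tsc22d3 is given by the values without it above.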

How the results depend on the processing

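None of the 8 genes passed after adjustment under any alternative, with adjusted p-values from 0.14 (Trib1 in DESeq2) to 0.996 (Irs1 without vehicle replicate 4). Insr, Irs1, Irs2, Akt2, Foxo1, Trib1 and Pck1 kept their direction in all 16 alternatives, and Fbp1 in 14, the exceptions being 0.00655 with vehicle replicate 3 left out and 0.036 without FSH replicate 3, and as low as -0.14 without FSH replicate 4. The number with an unadjusted p under 0.05 was 4 in each alternative with all animals and 2 to 5 with 1 animal left out. It was 2 without vehicle replicate 4 or without FSH replicate 1 and 5 without vehicle replicate 3. Foxo1 was among them in 9 of 9 fits that left out 1 animal, Trib1 in 8, Insr in 6 and Irs2 in 5. Over all tested genes the number past the threshold was 4, and it was 181 in DESeq2, 12 at an adjusted p of 0.10 and 0 to 4 with 1 animal left out. For genes of the pathway lists it was 0, and 1 in DESeq2 (Aqp9, log2 fold change -0.80). The cause of these shifts was not tested. Replicate numbers did not pair the animals: deviations of same-numbered animals from their group means correlated at -0.0407 to 0.0351 over genes, and 0 of 8 libraries had their own number as best partner. With the replicate block 5 genes passed, 0 of them from the 8, and the log2 fold change was 1.08 for Irs2, 0.35 for Insr, 0.32 for Foxo1 and 0.91 for Trib1. Each library held at least 185 counts of each of the 8 genes.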

Other observations

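The genes in this section were picked after their values were seen. Igfbp1, the insulin-like growth factor binding protein that insulin represses, was at 264, 213, 412 and 354 CPM in FSH replicates 1 to 4, against 120, 343, 167, 31.3 and 143 CPM in vehicle replicates 1 to 5. Vehicle replicate 2 lay among the FSH animals, although its Irs2 was the lowest of all (log2 fold change of Igfbp1 0.95, SE 0.50 and adjusted p = 0.501 in edgeR). Pdk4, the kinase that shuts pyruvate dehydrogenase in fasting, was at 103, 200.1, 306 and 213 CPM in FSH replicates 1 to 4, against 126, 48.7, 150.5, 53.0 and 132 CPM in vehicle replicates 1 to 5. FSH replicates 2, 3 and 4 were above every vehicle animal, and FSH replicate 1 was within their range (log2 fold change of Pdk4 1.01, SE 0.39 and adjusted p = 0.369 in edgeR). Pnpla3, a lipid droplet protein gene under SREBP-1, was at 387, 61.7, 24.8 and 51.0 CPM in FSH replicates 1 to 4, against 2191, 564, 73.0, 180 and 432 CPM in vehicle replicates 1 to 5. FSH replicate 1 overlapped the vehicle animals and the other FSH animals were below them all (log2 fold change of Pnpla3 -2.39, SE 1.06 and adjusted p = 0.425 in edgeR). None of these 3 genes passed the threshold in edgeR.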
